A study of Homo sapiens with 49 samples.

Results

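RNA polymerase II (RNAPII) peaks were present with estradiol and absent without it at 934 regions of the T-47D genome. These regions were divided by spacing, at 10 kb, into clustered and lone ones. Of the clustered regions 75.7% lay in gene bodies, many in chains along a small number of genes, led by GREB1 with 54 gained regions. Clustered regions seldom held an estrogen response element. The lone regions lay mostly in gene bodies (62.5%) and between genes (30.0%), and 21.8% of them held such an element or a 1-mismatch form of it. The clustered share, 45.4%, depended on processing. It was 14.6% with peaks within 1 kb merged, which joins chains by construction, and 19.2% when overlap of 50% in both directions was required. Of the 934 places, 800 (85.7%) overlapped no peak of 9 other targets in the DMSO or E2 lists of Ishikawa cells, and 77.8% of all RNAPII regions outside promoters did not either.

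The regions were chosen by their presence in the peak lists themselves. Peaks of the 4 T-47D RNAPII lists were merged into 54590 union regions on chromosomes 1 to 22 and X. A region was called gained if it overlapped a peak of both E2 lists and of neither DMSO list, and 934 of 54590, or 1.71%, met this rule. The reverse rule gave 115 lost regions, or 0.211%. A further 12294 regions were in all 4 lists and are called constant, of which 3217 lay outside promoters. Presence in a list was the value that chose the members, so the gain itself is a description, and no test of it is given. A region without a DMSO peak is one where RNAPII did not pass the peak threshold, which is not a measured level of 0.

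T-47D is a breast ductal carcinoma line, and Ishikawa is an endometrial adenocarcinoma line. Both were kept in hormone-depleted medium and then given 17β-estradiol (E2) at 10 nM or the vehicle DMSO, for 1 h before ChIP-seq of proteins and for 8 h before ChIP-seq of histone marks. The RNAPII antibody recognised the repeat of the C-terminal domain, and RNAPII was mapped in 2 libraries per treatment. Every other target had 1 library per line and treatment, and SIN3A had 1 library from stripped and 1 from full media in each line. With 2 libraries against 2, no exact two-sided permutation test can give a p below 0.333, so differences are described with counts and with exact (Clopper-Pearson) 95% intervals. Those intervals cover counting error only, and regions of the same gene are not independent of each other.

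The libraries were unequal. DMSO replicates 1 and 2 held 39371 and 21291 peaks, and E2 replicates 1 and 2 held 46282 and 23433, so the first replicate had the longer list in both treatments. The lists do not state read depth. All 9 genes of a list of T-47D markers, among them ESR1, GATA3 and FOXA1, had RNAPII in both DMSO lists and H3K4me3 in T-47D. Of 8 Ishikawa markers, only KRT8 and KRT18, which both lines share, had RNAPII in T-47D, and 4 of 4 stromal or immune markers had none.

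The estrogen receptor is a nuclear receptor that binds DNA as a dimer once it holds its hormone. Its preferred site, the estrogen response element, is an inverted repeat of a short arm with a spacer between the arms, and in breast cancer cells most such sites lie in enhancers far from promoters. RNAPII initiates at promoters, often pauses just past the start site, and then elongates through the gene body, while it also initiates at active enhancers. A peak of RNAPII away from a start site can therefore be polymerase in transit, polymerase at an enhancer, or contact between the enhancer and a transcribed gene, and ChIP-seq of RNAPII alone does not separate these.

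Response elements were more frequent in gained regions than in other RNAPII regions, so the elements of the strongest regions are shown first. The element was searched as GGTCANNNTGACC on both strands, in 300 bp centred on the summit of each region. Exact letters were present in 27 of the 934 regions. The 8 strongest of these regions, ranked by the smaller of their E2 values for fold enrichment, are given here. Fold enrichment is the ratio of ChIP signal to background at the summit. Each is read from the plus strand of GRCh37 (hg19), with the 13 bp element in capitals and 34 bases on each side.
LINC02946, 77.6 kb downstream of it, chr2:106139294-106139374: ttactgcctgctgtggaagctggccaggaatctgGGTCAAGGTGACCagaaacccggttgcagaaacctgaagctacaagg
ENSG00000227098, region over an exon, chr2:177710586-177710666: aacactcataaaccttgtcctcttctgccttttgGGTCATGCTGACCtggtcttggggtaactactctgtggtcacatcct
NYAP2, intron, chr2:226480353-226480433: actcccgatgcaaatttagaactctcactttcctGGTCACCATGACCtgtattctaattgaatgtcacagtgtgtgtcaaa
THSD4, intron, chr15:71397181-71397261: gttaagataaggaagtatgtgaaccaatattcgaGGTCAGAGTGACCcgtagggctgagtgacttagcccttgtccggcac
ENSG00000272980, promoter, chr6:167533981-167534061: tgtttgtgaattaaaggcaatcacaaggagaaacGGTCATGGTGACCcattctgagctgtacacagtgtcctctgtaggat
GREB1, intron, chr2:11672626-11672706: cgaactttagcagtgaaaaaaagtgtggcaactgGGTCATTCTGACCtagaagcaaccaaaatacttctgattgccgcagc
TPM3, intron, chr1:154163157-154163237: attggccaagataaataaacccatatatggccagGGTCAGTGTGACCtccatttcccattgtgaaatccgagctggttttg
TMEM241, region over an exon, chr18:20837898-20837978: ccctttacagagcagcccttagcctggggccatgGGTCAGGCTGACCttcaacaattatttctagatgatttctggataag

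The region near LINC02946, a long non-coding RNA gene, had a fold enrichment of 21 in E2 replicate 1 and 20.3 in replicate 2, and its element was 3 bp from the summit. The region in ENSG00000227098, also a long non-coding RNA gene, had 33.8 and 20.1, with the element 12 bp from the summit. The regions in NYAP2 and THSD4 had 25.8 and 18.5, and 20.8 and 18.1. The GREB1 region lay ahead of the long chain of regions in that gene and had 14.8 and 15.1. None of the 8 had a peak in either DMSO library, by the rule, and 3 of them (LINC02946, GREB1 and TPM3) overlapped at least 1 Ishikawa list.

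Across the 934 regions the fold enrichment had a median of 14.0 in E2 replicate 1, with a range from 3.80 to 43.8. In E2 replicate 2 the median was 8.70 and the range was 3.20 to 33.2. Replicate 1 gave the higher value at 820 of the 934 regions. Spearman's rank correlation between the replicates was 0.44 across regions, which share their 2 libraries and are not independent. Both replicates reached a fold enrichment of 10 at 265 regions, and of 20 at 9 regions. The regions were narrow, with a median width of 436 bp against 1060 bp for constant regions. Peaks of DMSO libraries were often not far away: 215 gained regions (23%) lay less than 1 kb from a DMSO peak, and 336 (36%) lay 10 kb or more from any.

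The rule has thresholds on both sides. The gained regions nearest to dropping out were in CHD2, with a −log10 p of 10.3 and 14.8 in E2 replicates 1 and 2, in LRIG1, with 34.8 and 10.7, and in SMUG1, with 10.9 and 14.2. The nearest outside were regions in both E2 lists with a weak DMSO peak, in ITPR1 and AMZ1, with 10.2 and 11.3 in DMSO replicate 1, and in C8orf34, with 10.4 in DMSO replicate 2. In all, 3446 regions were in both E2 lists and 1 DMSO list, 2833 of them in the longer list of DMSO replicate 1 and 613 in that of replicate 2.

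Gained regions lay inside genes more often than constant ones did. Gene bodies held 640 of them (68.5%, 95% interval 65.4 to 71.5%), intergenic sequence 214 (22.9%, 20.3 to 25.7%), and promoters, here 250 bp on each side of a start site, 80 (8.57%). The share in gene bodies was 41.4% without DMSO replicate 1 and 37% when overlap of 50% in both directions was required. Constant regions were distributed in the opposite way, with 73.8% in promoters and 17.3% in gene bodies. The share of promoters was as low among the lost regions, at 6.96%. When promoters were set aside, the balance between gene bodies and intergenic sequence was the same in gained regions as in all RNAPII regions, at 74.9% in gene bodies for both, and 66.1% in constant regions. Gained regions of gene bodies overlapped no exon in 75.9% of cases (95% interval 72.4 to 79.2%), against 65.6% of constant and 63.6% of all gene body regions.

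Within the gene the gained regions lay late, but so did RNAPII regions in general. The last of 4 equal parts of the gene held 34.2% of the gained gene body regions, 35.6% of the constant ones and 35.7% of all. Intergenic gained regions had a median distance of 8.51 kb to the nearest gene, and 82 of the 214 (38.3%) were within 10 kb downstream of a gene while 31 were within 10 kb upstream. Over all intergenic RNAPII regions 48.5% were within 10 kb downstream. GREB1 and PRAG1, which encodes a pseudokinase, each had 4 such regions downstream, and IGFBP4 had 3. The 3 regions nearest to NTSR2 lay beyond the end of GREB1 too, and closed the GREB1 chain.

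**Figure D1:**
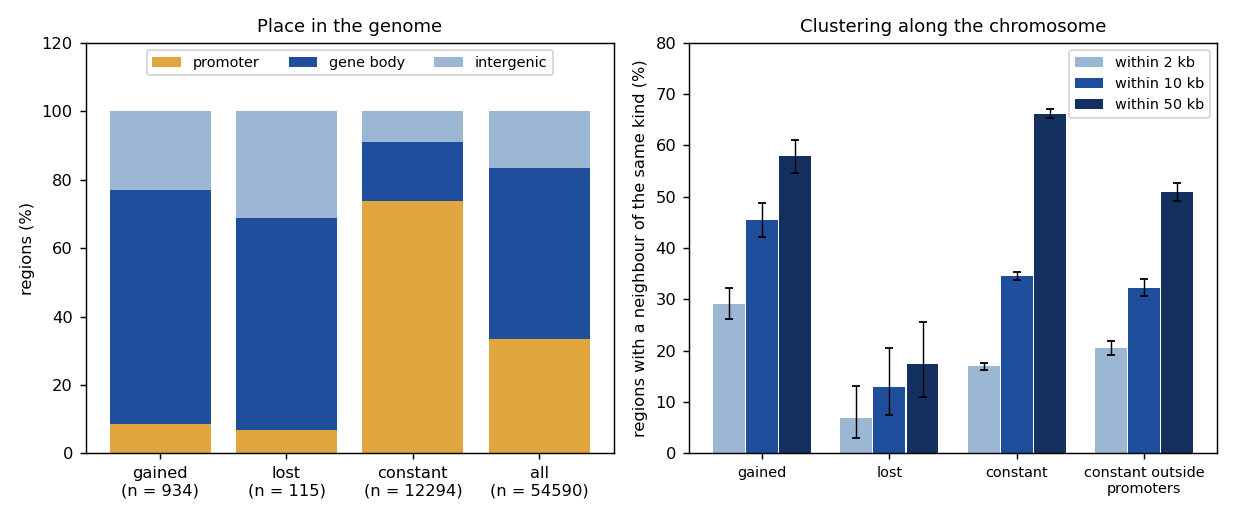
Left, percent of gained, lost, constant and all RNAPII regions in promoters, gene bodies and intergenic sequence. Right, percent of regions with another region of the same kind within 2, 10 or 50 kb, with exact 95% intervals. Promoters took 8.57% of gained and 73.8% of constant regions, and 45.4% of gained regions had a gained neighbour within 10 kb.

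Gained regions clustered along the chromosome. Another gained region lay within 10 kb of 424 of the 934 (45.4%, 95% interval 42.2 to 48.7%). The same share was 34.5% for constant regions, 32.3% for constant regions outside promoters, and 13% for the 115 lost regions. For gained regions it was 14.6% with peaks within 1 kb merged, and 19.2% when overlap of 50% in both directions was required. The share grows with the number of regions in a set, and over all 54590 regions it was 77.4%. Joining neighbours at up to 10 kb gave 600 chains, of which 510 were single regions. At the other end, 45 chains of 3 or more held 334 regions, and 8 chains of 10 or more held 170.

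The longest chain followed GREB1, which encodes an estrogen-induced coregulator of the estrogen receptor. It counted 57 regions over 111 kb (chr2:11684567-11795077), covered 64.7 kb of them, and ran past the end of the gene. The second, with 30 regions over 90.8 kb (chr21:36157930-36248743), lay over the distal part of the annotated span of RUNX1. That gene encodes a transcription factor of the Runt family. The third counted 19 regions over 35.2 kb (chr9:33108473-33143670) in B4GALT1, which encodes a galactosyltransferase of the Golgi. The next were 17 regions over 61.6 kb (chr19:5050975-5112583) in KDM4B, a histone H3K9 demethylase, and 16 over 51.7 kb (chr2:105969425-106021144) at FHL2, a LIM domain cofactor. Fold enrichment within these chains was moderate: the lower E2 value ran from 5.27 to 16.5 in the GREB1 chain and from 4.63 to 13.8 in the RUNX1 chain.

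Counted by gene, 719 gained regions lay in 369 genes, protein-coding or long non-coding. Only 1 region lay in each of 282 genes, while 43 genes with 3 or more held 349 regions, or 37.4% of all. GREB1 alone held 5.78%, the 5 leading genes 16.3% and the 20 leading genes 29.3%. After GREB1 with 54 came KDM4B with 30, RUNX1 with 29, B4GALT1 with 22, CA12 with 17, FHL2 and MYOF with 13 each, PGR with 11, and HSPB8 and GSE1 with 10 each. JAK1 and PFKFB3 had 9 each, YEATS2 and MED13L 7 each, AOPEP, SIAH2 and GSTM5 6 each, and SEPTIN9, PTGER3 and MIDEAS 5 each. A gained region overlapped more than 1 annotated gene in 109 cases and was then counted for one of them. All 6 regions of GSTM5 also overlapped the gene ENSG00000241720, and 4 overlapped EPS8L3, so their gene is uncertain. RUNX1 has an annotated span of 1217 kb in the annotation used, and 12 of its 29 regions also overlapped ENSG00000286153.

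**Figure D2:**
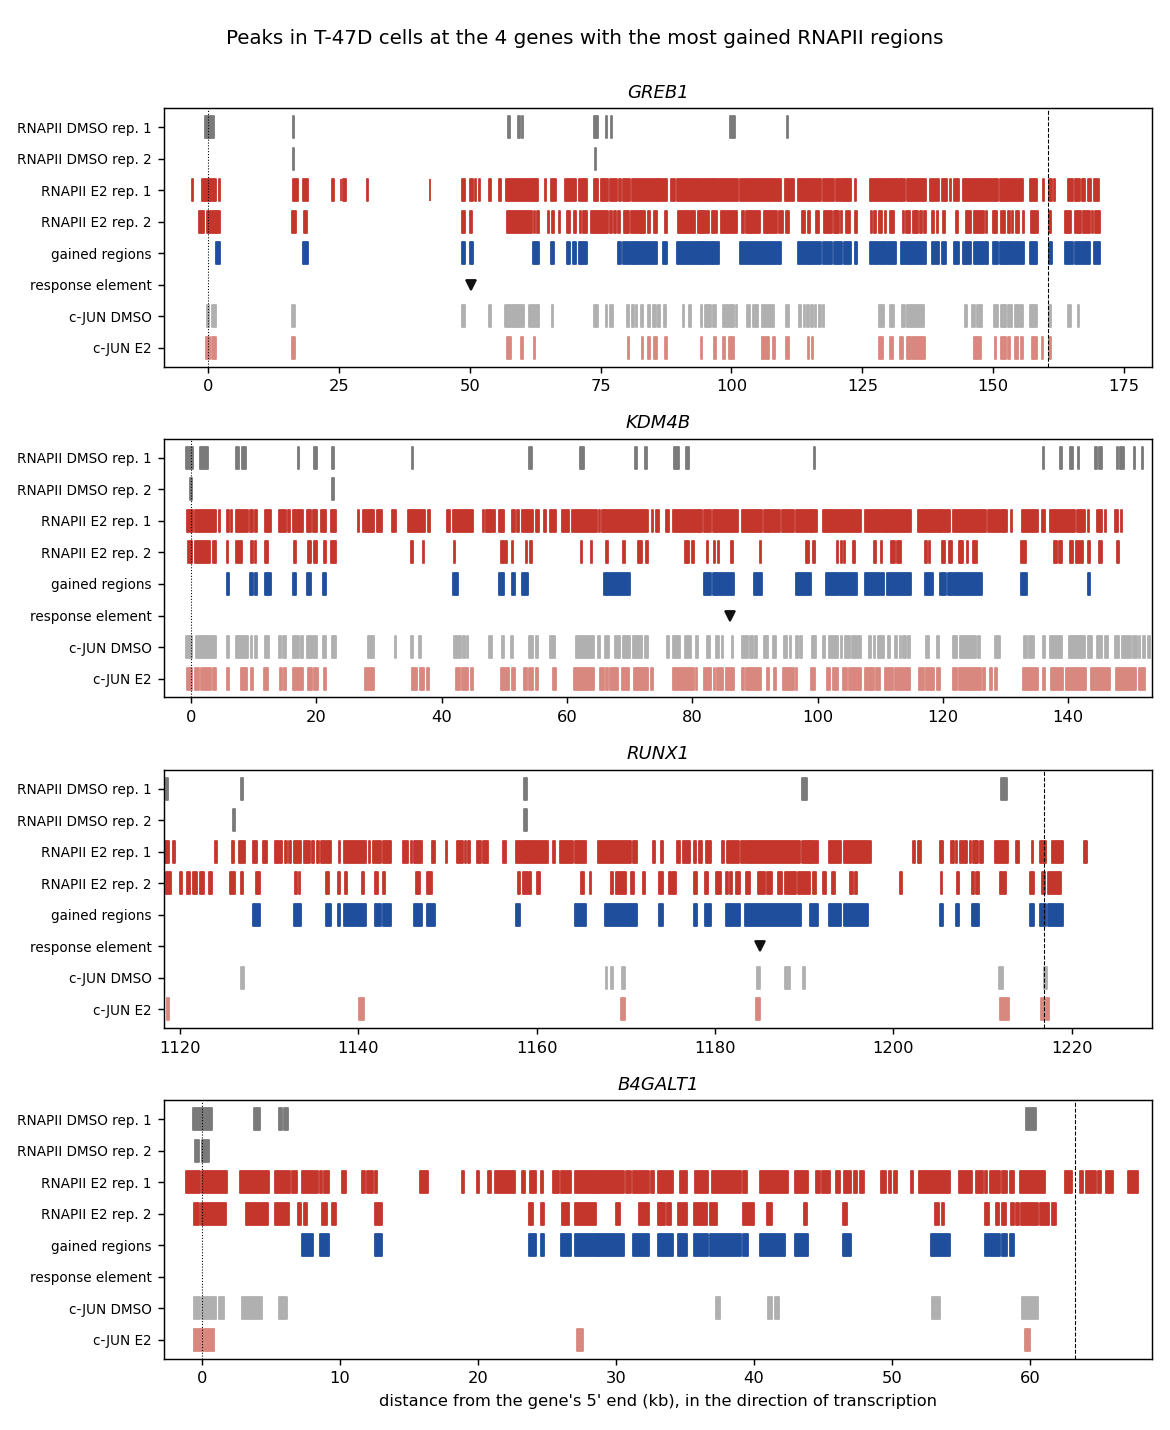
Peaks of T-47D lists at GREB1, KDM4B, RUNX1 and B4GALT1, by distance in kb from the annotated 5′ end of the gene in the direction of transcription. Dotted and dashed lines mark the ends of the gene, triangles mark response elements with at most 1 mismatch in gained regions, and only the stretch with gained regions is drawn. GREB1 holds 12 and 2 peaks in the DMSO lists and 95 and 96 in the E2 lists, and KDM4B 34 and 2 against 118 and 65.

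The number of RNAPII peaks in each library describes the leading genes further. These genes were chosen by gained regions of the same lists, so higher counts with E2 are partly built in and give no separate support. GREB1 overlapped 12 and 2 peaks in DMSO replicates 1 and 2, and 95 and 96 peaks in E2 replicates 1 and 2. These peaks covered 4.65 and 0.552 kb of the 160 kb gene with DMSO, and 79.4 and 53.2 kb with E2. From the annotated 5′ end, 4 of its 54 gained regions lay in the first 60 kb and 50 lay beyond, up to 158 kb. The chain thus occupied the distal part of the annotated span. DMSO replicate 1 already had peaks between 57.2 and 60.2 kb, just ahead of the chain. Which start site was in use was not tested.

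KDM4B overlapped 34 and 2 peaks with DMSO and 118 and 65 with E2. RUNX1 overlapped 11 and 8 with DMSO and 91 and 67 with E2. B4GALT1 overlapped 5 and 1 with DMSO and 57 and 40 with E2. In each of these genes both E2 libraries were above both DMSO libraries, an order that the choice of genes favours. The share of all genes with that order is not given here, so how common it is stays unknown.

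CA12, which encodes a membrane carbonic anhydrase, overlapped 5 and 5 peaks with DMSO and 65 and 26 with E2. FHL2 overlapped 7 and 1 with DMSO and 48 and 25 with E2. HSPB8, a small heat shock protein gene, overlapped 3 and 4 with DMSO and 22 and 20 with E2. These again did not overlap between treatments, which the choice of genes favours here too. The second E2 library was lower than the first in CA12 and FHL2.

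PGR, which encodes the progesterone receptor, was the gene among these where the replicates differed in the other direction. It overlapped 9 and 40 peaks in DMSO replicates 1 and 2, and 47 and 73 in E2 replicates 1 and 2. The second DMSO library was thus close to the first E2 library. MED13L, a Mediator subunit gene, showed groups that overlapped, with 15 and 123 peaks with DMSO and 89 and 139 with E2. GSE1 did not overlap but was close, with 105 and 30 peaks with DMSO and 163 and 113 with E2. AOPEP overlapped between treatments, with 72 and 46 against 121 and 66, and so did SEPTIN9, with 52 and 3 against 108 and 16, and MIDEAS, with 26 and 5 against 40 and 20.

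**Figure D3:**
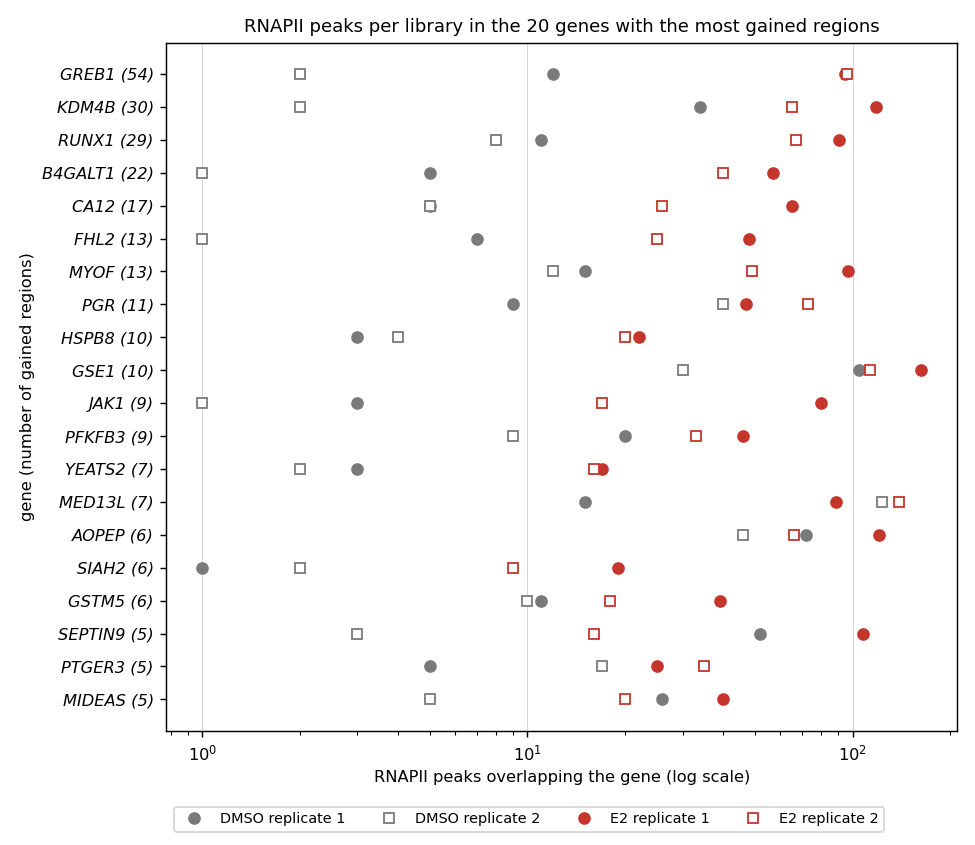
RNAPII peaks overlapping each of the 20 genes with the most gained regions, 1 point per library, on a log axis. Gray marks are DMSO and red marks are E2, filled for replicate 1 and open for replicate 2. In GREB1 the DMSO libraries gave 12 and 2 peaks and the E2 libraries 95 and 96.

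Most genes with several gained regions had RNAPII at their start site before E2. Of 42 protein-coding genes with 3 or more gained regions, 37 (88.1%, 95% interval 74.4 to 96.0%) had a start site peak in both DMSO lists, and 1 had one in the E2 lists only. Of 267 protein-coding genes with a gained region in the body, 166 (62.2%, 56.1 to 68.0%) had a start site peak in both DMSO lists, and all 166 had one in all 4 lists. The share over all 20090 protein-coding genes was 46.3%. Some of the rest had RNAPII at the start site in no list, at 29 of 267 genes (10.9%).

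Genes listed as estrogen targets held many of the regions. That list was chosen with earlier results of these data known, so its share is a description and gives no separate support. Of its 45 estrogen-induced genes, 18 held at least 1 gained region, 6 held 3 or more, and together they held 128 regions. GREB1 alone held 54 of these. Over all protein-coding genes, 295 of 20090 (1.47%) held one, and among genes with a start site peak in both DMSO lists 1.98% did. The median over the list was 0 regions per gene, as it was over all genes. Besides the genes above, the list's members included SIAH2, a ubiquitin ligase gene, with 6 regions, and IGFBP4, STC2, RARA, TPD52L1 and FKBP4 with 2 each. CCND1, MYC, MYB, RAPGEFL1, RBBP8, MREG and TIPARP had 1 each. With 100 kb on each side of the gene, 30 of the 45 genes had a gained region, and 6.72% of all protein-coding genes did.

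At IGFBP4, which encodes a binding protein of insulin-like growth factors, the lists gave 1 and 0 RNAPII peaks in DMSO replicates 1 and 2, and 10 and 7 with E2. At SIAH2 they gave 1 and 2 with DMSO, and 19 and 9 with E2. At CCND1, the cyclin D1 gene, they gave 7 and 1 with DMSO and 9 and 11 with E2, and 1 region there was gained. At RARA, the retinoic acid receptor alpha gene, the treatments overlapped, with 32 and 6 peaks with DMSO and 21 and 39 with E2.

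The other 27 genes of the estrogen list held no gained region. TFF1, EGR3, AREG and ELOVL2 had no RNAPII peak in any of the 4 libraries. CTSD, XBP1 and SLC7A5 had start site peaks in all 4, but none of their regions met the rule. Peaks covered 6.24 and 0.235 kb of CTSD with DMSO, and 11.6 and 10.2 kb with E2. For XBP1 this was 1.96 and 3.31 kb against 4.11 and 5.68 kb. In SLC7A5 the treatments overlapped, with 26.7 and 2.35 kb against 30.7 and 24.5 kb. CXCL12 had 2 and 0 peaks with DMSO and 13 and 1 with E2, so its peaks depended on E2 replicate 1.

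The other gene lists held fewer gained regions than the estrogen list. In luminal transcription factors, 2 of 12 genes had a gained region: ESR1, the estrogen receptor gene itself, with 1, and GRHL2 with 4. Nuclear receptors had 4 of 13 (ESR1, PGR and RARA among them), genes of the insulin-like growth factor pathway 3 of 10 (IGF1R, IGFBP4 and IGFBP5), and immediate early genes 2 of 17 (FOSL2 and MYC). The shares of genes in these lists ran from 11.8% (immediate early genes) to 30.8% (nuclear receptors), against 1.47% of all protein-coding genes. These lists share genes and were chosen with earlier results known, so the shares are descriptions. None of 24 genes of cytosolic ribosomal proteins had one. With 1.47% over all protein-coding genes, a list of that length cannot show a lower share. Lost regions were in TFAP2A and TRPS1 of the luminal list and in no gene of the estrogen list. Over all protein-coding genes 56 of 20090 held a lost region, so the estrogen list is too short to show a lower share.

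The strongest single regions included clustered and lone ones. The lower E2 value reached 29.3 among regions with a gained neighbour within 10 kb, and 22.6 among lone regions. The highest of all lay 28.2 kb downstream of PRAG1, with fold enrichment of 43.8 in E2 replicate 1 and 29.3 in replicate 2. The next was in LINC00160 (chr21:36100538-36101376), a long non-coding RNA gene next to RUNX1, with 32.3 and 28.2. A pair followed at chr11:1757046-1760073 and chr11:1760302-1761349, over IFITM10 and the overlapping gene ENSG00000250644, with 26 and 33.2, and with 32.8 and 23.6. The fifth was 6.04 kb downstream of IGFBP4 (chr17:38620014-38621601), with 29.6 and 22.8, and the sixth was in an intron of GATA4, with 27.5 and 22.6.

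After the LINC02946 and ENSG00000227098 regions shown above, the ranks down to the fifteenth held an HSPB8 promoter region (chr12:119620482-119622101), with 19.4 as the lower of its values, and an FHL2 intron (chr2:106020306-106021144), with 28.2 and 19.2. They also held intergenic regions near ENSG00000254632, ENSG00000282265 and MPDZ, a region shared by SGK3 and its readthrough gene C8orf44-SGK3, and the NYAP2 intron. The NYAP2 region was 392 kb from the nearest DMSO peak, whereas the region downstream of IGFBP4 was 0.888 kb from one.

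Exact response elements were at 2.89% of the gained regions (95% interval 1.91 to 4.18%). They were at 0.122% of constant regions, at 0.280% of constant regions outside promoters (0.128 to 0.530%), and at 0.364% of all RNAPII regions outside promoters. None of the 115 lost regions held one, and the exact interval of that share reaches 3.16%. With at most 1 mismatch in the 10 fixed letters, the share was 14.2% of gained regions (133, 12.1 to 16.6%), against 2.11% of constant regions outside promoters (1.65 to 2.67%), 2.48% of all regions outside promoters and 1 of the 115 lost regions. The intervals of gained and constant regions do not meet.

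Base composition moved with these sets. The median GC content of the 300 bp windows was 47.3% in gained, 50.7% in constant regions outside promoters and 64.3% in all constant regions. Within 5 bands of GC content outside promoters, the share with an element of at most 1 mismatch was 12.5 to 19.4% in gained regions, and 1.63 to 3.65% in constant regions. Gained regions were above constant regions in each of the 5 bands.

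The elements sat near the summits of RNAPII. Of the 133 elements with at most 1 mismatch, 97 (72.9%) had their centre within 50 bp of the summit, with a median distance of 32 bp. Exact elements were within 50 bp in 21 of 27 regions. In constant regions outside promoters 34 of 68 elements were as near, and in all other regions outside promoters 455 of 774 (58.8%).

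A single arm of the element, GGTCA, was at 60.7% of gained regions, 44.2% of constant regions outside promoters and 48.3% of all outside promoters. Other motifs differed less. The GATA motif AGATAA was at 15.2% of gained regions outside promoters and 12% of constant ones. The AP-1 motif TGANTCA was at 11.2% and 14.4%, the forkhead motif TGTTTAC at 7.26% and 8.24%, and the E-box CACGTG at 4.33% and 4.88%. For these 4 motifs the intervals of gained and constant regions overlapped. Among all RNAPII regions outside promoters, the GATA motif was at 10.3% and the E-box at 7.03%, and neither interval meets that of gained regions. The median GC content outside promoters was 47.3% in gained and 54.0% in all regions. These motifs were not compared within GC bands, so whether base composition has a part in this was not tested. The AP-1 motif was there at 10.4% and the forkhead motif at 5.45%, with intervals that overlap those of gained regions. A retinoic acid response element, the arm repeated directly with a spacer of 5 bases (GGTCANNNNNGGTCA), was at 2 gained regions. The arm is part of both response elements, so these shares are not separate. A match is a description of sequence and not a bound site.

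**Figure D4:**
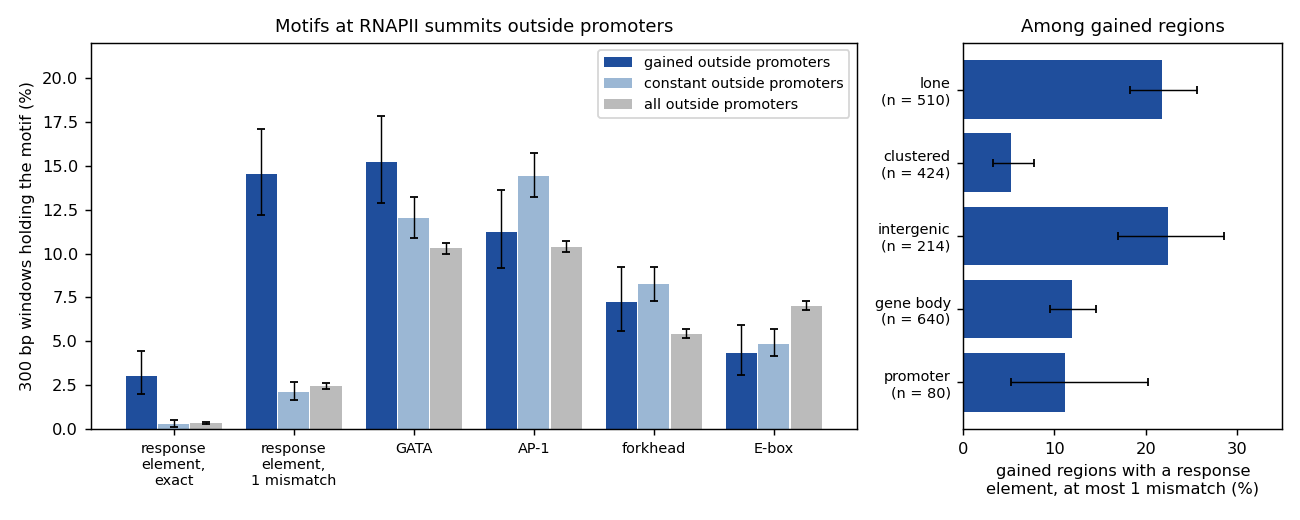
Left, percent of 300 bp windows at RNAPII summits outside promoters that hold each motif, in gained, constant and all regions. Right, percent of gained regions with a response element of at most 1 mismatch, by clustering and by place. Bars are exact 95% intervals, and the element was at 21.8% of lone and 5.19% of clustered gained regions.

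Elements were spread unevenly within the gained regions. Among the 510 lone regions, with no gained neighbour within 10 kb, 111 (21.8%, 95% interval 18.3 to 25.6%) held an element with at most 1 mismatch. Among the 424 clustered regions 22 did (5.19%, 3.28 to 7.75%). Exact elements were at 24 lone regions and 3 clustered ones. Constant regions outside promoters gave 2.16% for lone and 2.02% for clustered regions. Lone and clustered gained regions were both above these values. Summits of the E2 replicates were within 100 bp of each other in 609 gained regions, and in these alone the shares were 25.4% for lone and 6.90% for clustered regions. With whole regions searched they were 22.9% and 7.08%, and 5.00% and 4.53% for lone and clustered constant regions.

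The contrast of lone and clustered extended to place, width and gene. Lone regions were intergenic in 30.0% of cases and clustered ones in 14.4%, and their median width was 362 bp against 632 bp. Their median fold enrichment was nearly the same, at 8.39 and 8.76. The element was at 22.4% of intergenic, 11.9% of gene body and 11.2% of promoter regions. It was at 55 of 282 regions (19.5%) that were the only one of their gene, but at 14 of 349 (4.01%) in genes with 3 or more, and at 1 of the 54 in GREB1. Of 4 equal groups of the regions by fold enrichment, the lowest held it in 9.40% and the highest in 23.1%.

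Genes with many gained regions were nevertheless not without an element among them. At least 1 gained region with an element was in 13 of the 43 genes with 3 or more (30.2%, 95% interval 17.2 to 46.1%), and in 68 of the 326 genes with 1 or 2 (20.9%, 16.6 to 25.7%). With 100 kb on each side, the counts were 20 of 43 and 87 of 326. A gene with more regions has more chances to hold one. In the leading genes GREB1 held the exact element GGTCATTCTGACC (chr2:11672660-11672672). RUNX1 held CGTCACCCTGACC (chr21:36191890-36191902), which differs by G1C, and KDM4B held GGCCAGGGTGACC (chr19:5055225-5055237), which differs by T3C, both counted from the first base of the element. These 2 elements were 121 and 107 bp from their summits, farther than most.

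Among the other targets mapped in T-47D, the one most often at the gained regions was c-JUN, a subunit of AP-1. The library labelled c-JUN DMSO overlapped 251 gained regions (26.9%) and the library labelled c-JUN E2 overlapped 127 (13.6%), of which 109 were in both. A peak with DMSO and none with E2 was at 142 gained regions (15.2%), and at 10.1% of all RNAPII regions. The reverse was at 18 gained regions (1.93%), and at 6.54% of all. Outside promoters these shares were 15.1% and 1.87% of gained regions, and 12.6% and 5.95% of all. The places where RNAPII appeared with E2 therefore had fewer c-JUN peaks in the E2 list, as had constant regions outside promoters, with 65.0% and 37.2%. Each c-JUN list is 1 library, and whether its labels or its enrichment have a part in this was not tested.

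The gap between the c-JUN lists was wider at response elements. Of the 133 gained regions with an element of at most 1 mismatch, 60 (45.1%, 95% interval 36.5 to 54.0%) overlapped the c-JUN DMSO list and 18 (13.5%) the c-JUN E2 list. Of the 801 without, 191 (23.8%, 20.9 to 27%) and 109 (13.6%) did. In GREB1, 32 of the 54 gained regions overlapped the DMSO list and 23 the E2 list, and in KDM4B 26 and 25 of 30. In RUNX1, 3 and 4 of 29 did, so the presence of c-JUN peaks over chains varied from gene to gene.

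H3K4me3, the mark of active promoters, was at 63 gained regions with DMSO and 61 with E2. Outside promoters these were 5.62% and 5.97% of gained regions, against 12.1% and 9.83% of all RNAPII regions. H3K4me1, a mark of enhancers, was at 45 with DMSO and 8 with E2, in lists of 6408 and 1960 peaks. Its shares outside promoters were 4.68% and 0.820% of gained regions, and 4.57% and 1.38% of all. H3K27me3, the Polycomb mark, was at 11 with DMSO and 0 with E2, and its E2 list held 107 peaks in all. With DMSO outside promoters it was at 1.17% of gained and 3.16% of all regions. LSD1, a histone demethylase, was at 0 with DMSO and 10 with E2, and TAF1, a subunit of the general factor TFIID, at 0 and 1. With E2 outside promoters, LSD1 was at 1.17% of gained and 1.05% of all regions, and TAF1 at 0.117% and 0.413%. MAX, c-MYC and RARA lists overlapped 0 of the 934 regions under both treatments, and the exact interval of that share reaches 0.394%. With E2 these lists overlapped few of all RNAPII regions outside promoters as well, at 0.245%, 0.535% and 0.190%. TAF1 was at 40.6% of constant regions. In total, 197 gained regions (21.1%) overlapped some T-47D E2 list of the 9 targets, 78 (8.35%) without c-JUN, and 583 (62.4%) overlapped no list of either treatment. Outside promoters, 63.5% of gained regions and 61.5% of all RNAPII regions were in no such list.

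The same places were then looked up in Ishikawa cells. No RNAPII list of Ishikawa cells was analysed here, so the comparison rests on the other targets. Of 9 targets, some E2 list overlapped 120 gained regions (12.8%) and some list of either treatment 134 (14.3%). Constant regions outside promoters overlapped an Ishikawa E2 list in 1288 of 3217 cases, and all RNAPII regions outside promoters in 7469 of 36280 (20.6%). The low share of gained regions rested on DMSO replicate 1, without which it was 55.6%, and on the overlap rule, since it was 53.3% when overlap of 50% in both directions was required. With the SIN3A and H3K36me3 lists added, 798 gained regions were in no Ishikawa list, 49 in 1 list, 52 in 2 to 4 lists and 35 in 5 or more. Outside promoters the shares of gained regions were 86.7%, 4.68%, 5.27% and 3.40% in that order. Those of all RNAPII regions outside promoters were 77.5%, 4.69%, 9.32% and 8.47%.

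c-JUN in Ishikawa went the other way from the T-47D lists. It was at 21 gained regions with DMSO and 83 with E2, and 64 (6.85%) had a peak with E2 alone. That share was 14.8% over all RNAPII regions, which include many more promoters. Outside promoters it was 6.32% of gained and 7.06% of all regions. The E2 list held 18311 peaks and the DMSO list 3768, so a larger number with E2 was seen at RNAPII regions in general. Of gained regions with a response element, 28 of 133 (21.1%, 95% interval 14.5 to 29.0%) overlapped the Ishikawa c-JUN E2 list, and of those without 55 of 801 (6.87%, 5.21 to 8.84%). With DMSO the numbers were 4 and 17.

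LSD1 in Ishikawa was at 23 gained regions with DMSO and 36 with E2, with 24 in the E2 list alone, or 2.57%, against 11.6% of all RNAPII regions. RARA was at 0 and 11, and the E2 list alone held 1.18% against 3.45% of all. H3K4me3 was at 28 and 41, with 18 (1.93%) in the E2 list alone against 1.34% of all. Outside promoters, the E2 list alone held 2.11% of gained and 4.63% of all regions for LSD1. For RARA it held 1.17% and 1.29%, and for H3K4me3 1.76% and 1.43%. H3K4me1 was at 63 and 61, TAF1 at 15 and 14, MAX at 2 and 7, H3K27me3 at 3 and 2, and c-MYC at 0 under both. Outside promoters, H3K4me1 was at 5.97% with DMSO and 6.09% with E2 of gained regions, against 10.8% and 9.81% of all. TAF1 was at 1.41% and 1.29%, against 7.82% and 5.64%. MAX was at 0.234% and 0.585%, against 1.30% and 1.14%. H3K27me3 was at 0.351% and 0.234%, against 1.54% and 2.17%. The c-MYC DMSO list overlapped 0.0110% of all regions outside promoters. SIN3A was at 15 with stripped and 23 with full media, and H3K36me3, with 114 peaks in its list, at 0. Outside promoters, SIN3A was at 1.17% and 2.46% of gained regions, against 7.91% and 4.70% of all.

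**Figure D5:**
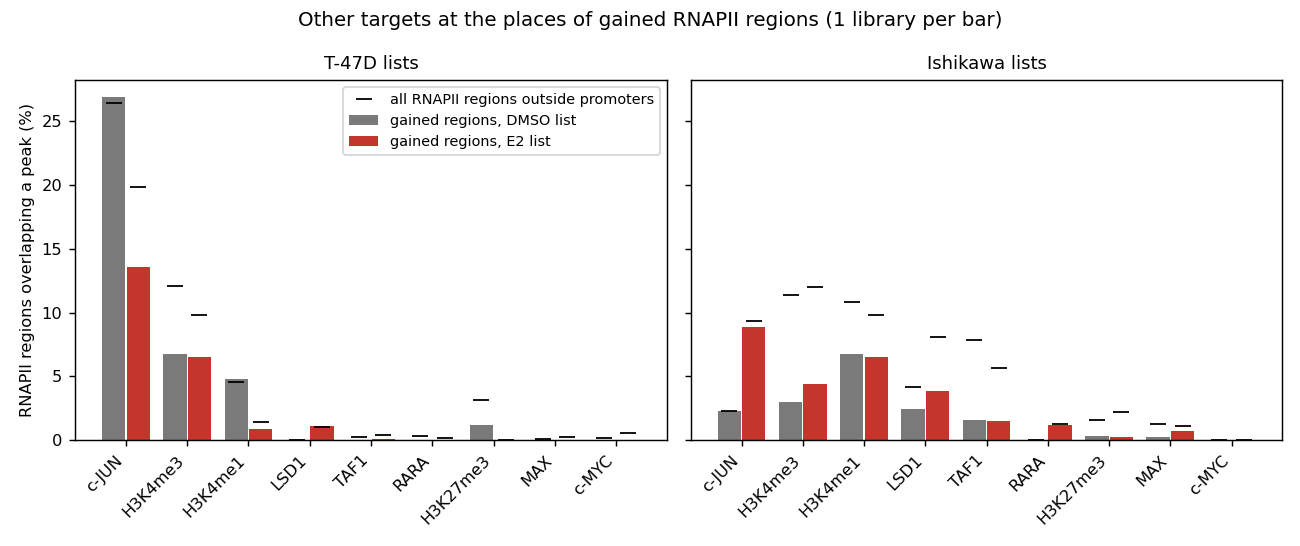
Percent of the 934 gained regions that overlap a peak of each target in T-47D (left) and Ishikawa (right) lists, with DMSO in gray and E2 in red, 1 library per bar. Black dashes give the percent of all RNAPII regions outside promoters. The c-JUN bars are 26.9% and 13.6% in T-47D, and 2.25% and 8.89% in Ishikawa.

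The gained regions found in the most Ishikawa lists carried promoter marks there. A region in an intron of ERICH1 was in 15 of 21 Ishikawa lists, and a promoter region of CARD10 (chr22:37908121-37908838) in 14, both with H3K4me3, H3K4me1 and TAF1 under both treatments. In GSE1, a region at chr16:85513288-85514840 was in 13 lists, H3K27me3 among them, and another at chr16:85516792-85517974 was in 12. A RUNX1 intron region (chr21:36236105-36238568), part of the T-47D chain, was in 12 lists. Most gained regions overlapped no Ishikawa list (85.4%). In GREB1 2 of the 54 gained regions overlapped one, and in PGR none of the 11 did.

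The lost regions were a smaller and less clustered set. Among the strongest were those in the histone gene H2AC14, with fold enrichment of 11.7 and 13.1 in DMSO replicates 1 and 2, far upstream of NDST4, with 15.3 and 11.4, upstream of PTCHD3, with 11.2 and 14.5, and in TBC1D8 (chr2:101629242-101629527), with 10.5 and 10.4. The lower value of the strongest lost region was 11.7, whereas 9 gained regions reached 20 in both E2 libraries.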

How the data were processed

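RNAPII and the other targets were mapped by ChIP-seq in T-47D and Ishikawa cells, and 45 of 49 samples had a peak list, with groups taken from the sample labels. The other 4 samples, inputs, were not analysed here. Reads had been aligned by the authors to the hg19 build (GRCh37) using Bowtie 1.1.2, and peaks called per library with MACS2 2.1.0.20140616, as named in the submitters' processing notes. For each peak the authors deposited a fold enrichment (a ratio of ChIP to background at the summit), −log10 values of p and of q (p-value and q-value), and a score equal to the −log10 p-value times 10. In every list the lowest −log10 p-value was 10 or above. The lists state no read depth, so a missing peak can reflect depth or enrichment as well as occupancy.

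Here, RNAPII peaks sharing at least 1 bp were merged into union regions and classed by the lists they overlapped. Places came from GENCODE release 44 lifted to GRCh37 (protein-coding and long non-coding genes), with promoters within 250 bp of a start site. A region over several genes went to the protein-coding gene with the most overlap. Motifs were sought in 300 bp centred on the mean of the E2 summits of a region (of all its summits where it had no E2 peak). Shares have exact 95% binomial intervals. Scripts (Python 3.11.15, pandas 2.3.3, SciPy 1.17.1) were tested on simulated peak lists and sequences.

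The members, gene lists and markers were chosen with earlier results of these data known. Named were the 20 genes with the most gained regions, the 15 strongest gained regions by the lower E2 value, listed genes with a gained region, the 5 strongest lost regions, the 8 strongest exact elements, 3 regions on each side of the threshold, the 5 largest chains and the 5 gained regions in the most Ishikawa lists. A few items met by these criteria were left unreported. Other genes and regions named were chosen after their values were seen. PECAM1, a marker absent from the annotation used, was left out. Alternatives covered overlap, threshold, list length, merging, distance, windows and each RNAPII library left out. Several more were added after the data were seen.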

Additional observations from a re-analysis of the deposited data

Results flagged for a closer look

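Some targets changed in opposite directions between the lines at the gained RNAPII regions, with 1 library per line and treatment, so the differences were not tested. For c-JUN, the number of gained regions with a peak was 62 higher with E2 than with DMSO in Ishikawa and lower by 124 in T-47D, a difference of 186. For H3K4me3 it was 13 higher in Ishikawa and 2 lower in T-47D, a difference of 15. For TAF1 it was 1 lower in Ishikawa and 1 higher in T-47D, a difference of -2. The last of these rests on 1 region in each line. Over all 54590 RNAPII regions the directions were the same, so they are not particular to gained regions. There c-JUN was at 1680 regions with DMSO and 9735 with E2 in Ishikawa, and at 22644 and 20698 in T-47D. H3K4me3 was at 17187 and 17495 in Ishikawa, and at 17289 and 15835 in T-47D. TAF1 was at 14617 and 12766, and at 4279 and 5223.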

How the results depend on the processing

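Of 65 values recomputed with all 4 RNAPII libraries, 38 stayed within 1.5 times the count or within the 95% interval of the percent reported, and 27 moved. No value is a test, so none can lose or gain a call. A −log10 q of at least 10 moved none, giving 915 gained regions. Requiring overlap of 50% in both directions, under which a DMSO peak over a small part of a region no longer counts, gave 1543 gained and 223 lost regions, with 37% of the gained in gene bodies, 17.2% intergenic, 19.2% within 10 kb of another, 1.75% with an exact element, 53.3% in an Ishikawa E2 list and 59.6% in another T-47D E2 list. Merging peaks within 1 kb, which joins chains by construction, gave 501 gained and 63 lost regions, 62.3% in gene bodies, 28.9% intergenic, 14.6% within 10 kb of another, 13 genes with 3 or more, 4.79% with an element and 16.0% in a T-47D list. Lists cut to equal length gave 199 lost regions, 17.3% in an Ishikawa and 33.3% in a T-47D list. Keeping at least 1 kb from peaks of the other treatment gave 57 lost regions and 26 genes with 3 or more. A promoter window of 1000 bp gave 62.1% in gene bodies, a distance of 2 kb 29.1% with a neighbour, and 1 mismatch 14.2% with an element. At a fold enrichment of at least 10 in the other lists, 9.64% were in an Ishikawa and 9.74% in a T-47D list. Chosen after seeing the data, leaving out c-JUN gave 8.35% in a T-47D list, and leaving out GREB1 or promoters moved no value. Nor did placing the element window elsewhere (2.89 to 3.21%) or keeping the 609 regions with E2 summits within 100 bp (4.11%).

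Each RNAPII library decided the size of the set. Gained regions numbered 4275 without DMSO replicate 1, 1562 without DMSO replicate 2, 2055 without E2 replicate 1 and 11537 without E2 replicate 2. Lost regions numbered 2289, 10633, 1190 and 598 in the same order. Over these the gained regions were in gene bodies in 41.4 to 72.6%, intergenic in 15.5 to 24.1%, within 10 kb of another in 37.2 to 66.9%, with an exact element in 0.858 to 1.86%, in an Ishikawa E2 list in 8.95 to 55.6% and in a T-47D list in 11.6 to 72.3%, with 79 to 658 genes of 3 or more. Without DMSO replicate 1 the gained set held 41.4% in gene bodies, 55.6% in an Ishikawa list and 72.3% in a T-47D list, so its description depends on that library. The element share stayed above the 0.364% of all RNAPII regions outside promoters in each. No paired analysis was possible because the result comes from no test. Read by shared replicate number, 12432 regions had an E2 and no DMSO peak in replicate 1 and 4659 in replicate 2, and those in both are the 934 by construction.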

Other observations

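Gained regions were unevenly spread over chromosomes. Chromosome 2, which carries GREB1 and FHL2, held 107 of the 934 (11.5%) and 4.89% of all RNAPII regions, and chromosome 21, which carries RUNX1, held 40 (4.28%) and 1.68%. On chromosome 21, 4.37% of RNAPII regions were gained, and on chromosome X 0.974%.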
